A study of Mus musculus with 16 samples.

Results

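The arm of the circadian clock driven by E-boxes was followed through 10 genes, out of 52143 genes in a table of liver RNA-seq counts. They were chosen by symbol, with earlier results of these data known, and each symbol had a single row. They are the PAR-bZIP transcription factors *Dbp*, *Tef* and *Hlf*, the nuclear receptors *Nr1d1* and *Nr1d2* (REV-ERBα and REV-ERBβ), the period genes *Per1*, *Per2* and *Per3*, and the clock-controlled genes *Ciart* and *Usp2*. All are annotated as protein-coding.

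Livers of 16 male C57BL6/J mice were sequenced, 4 in each of 4 groups. Mice were placed at 6 weeks of age on chow or on a high-fat diet (HFD, 60% fat) for 12 weeks. The group named Chow ate chow and the group named HFD ate the high-fat diet, and both were injected with saline every 2 weeks. The groups named Chow/FGFR4 KD and HFD/FGFR4 KD received, on the same diets and schedule, 3 mg/kg of an siRNA against *Fgfr4*, a receptor that restrains bile acid synthesis in hepatocytes. GalNAc, the sugar to which the siRNA was coupled, directs it to hepatocytes, where the knockdown (KD) was meant to act. Control mice received no siRNA at all, so the loss of FGFR4 and the presence of an siRNA cannot be told apart. Mice lived 4 to a cage, and which of them shared a cage is not given in the sources used here, so the p-values measure the spread between these 16 livers.

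In the core clock, the heterodimer of BMAL1 (encoded by *Arntl*) and CLOCK or NPAS2 binds E-boxes and switches on the *Per*, *Nr1d* and PAR-bZIP genes. PER proteins, together with CRY proteins, then inhibit the heterodimer, and the REV-ERB receptors repress *Arntl*, so that *Arntl* and the E-box targets peak at opposite times of day. DBP, TEF and HLF bind D-boxes and carry the rhythm to liver enzymes, where NFIL3 competes with them. The level of each of these transcripts in a liver therefore depends on the hour at which it was taken. The hour of collection for each mouse is not given in the sources used here. In these data, neither diet nor KD can therefore be told apart from time of collection.

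The promoters are shown because E-boxes and D-boxes are what define this arm. RefSeq windows from 250 bases before to 50 bases after an annotated start (GRCm38.p6) were at hand for 9 of the 10 genes, with 2 starts each for *Tef* and *Per1*, and none for *Per2*. They were searched on both strands for the E-box CACGTG, the E′-box CACGTT, the D-box (TTATGTAA or TTACGTAA), the REV-ERB/ROR element and the cAMP response element (CRE) TGACGTCA. Each motif was searched on its own, so matches to different motifs may share bases. The part of each window before its start is printed below up to the first base annotated as exonic in the window, 5′ to 3′ on the strand of the gene, with the matches in capitals. The starts shown for *Tef* and *Per1* lie within the genes as GENCODE delimits them. *Ciart* and *Per3* were chosen as the genes with more than 1 match in a window, *Tef* and *Per1* as genes with an E-box whose levels followed the diet differently, and *Nr1d1* for its E′-box.
Ciart (chr3:95882252-95882478, minus strand): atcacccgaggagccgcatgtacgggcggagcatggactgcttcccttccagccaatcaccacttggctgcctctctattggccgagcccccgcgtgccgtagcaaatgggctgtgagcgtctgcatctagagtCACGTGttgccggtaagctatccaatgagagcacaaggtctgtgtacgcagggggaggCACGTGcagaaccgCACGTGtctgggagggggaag
Per3 (chr4:151044666-151044915, minus strand): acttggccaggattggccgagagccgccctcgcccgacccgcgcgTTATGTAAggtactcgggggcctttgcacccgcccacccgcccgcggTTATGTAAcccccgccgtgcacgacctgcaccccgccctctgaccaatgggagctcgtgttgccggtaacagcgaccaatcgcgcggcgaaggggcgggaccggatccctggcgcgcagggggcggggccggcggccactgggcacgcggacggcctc
Tef, second start (chr15:81811164-81811413, plus strand): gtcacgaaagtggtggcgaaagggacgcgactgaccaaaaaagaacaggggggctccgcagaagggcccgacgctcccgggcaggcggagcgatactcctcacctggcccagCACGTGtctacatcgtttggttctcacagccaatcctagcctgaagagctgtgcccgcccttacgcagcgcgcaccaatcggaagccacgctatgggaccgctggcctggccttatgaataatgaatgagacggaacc
Per1, first start (chr11:69098699-69098947, plus strand): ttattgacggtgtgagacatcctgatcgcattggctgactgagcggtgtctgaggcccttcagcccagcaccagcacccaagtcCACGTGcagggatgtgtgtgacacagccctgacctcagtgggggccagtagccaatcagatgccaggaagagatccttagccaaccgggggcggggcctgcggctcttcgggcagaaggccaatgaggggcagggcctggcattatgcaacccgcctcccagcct
Nr1d1 (chr11:98775378-98775627, minus strand): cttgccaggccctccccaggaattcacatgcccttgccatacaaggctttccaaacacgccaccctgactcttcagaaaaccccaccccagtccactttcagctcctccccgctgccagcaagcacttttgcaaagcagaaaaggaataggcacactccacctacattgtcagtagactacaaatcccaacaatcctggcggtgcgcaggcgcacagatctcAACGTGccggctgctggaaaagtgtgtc

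*Ciart* held 3 E-boxes, whose first bases lay at -116, -58 and -44 relative to the start. *Tef* held 1 E-box at each start, at -127 and -138, and *Per1* held 1 at its first start, at -166. The 2 D-boxes of *Per3* lay at -205 and -158. *Nr1d1* had an E′-box at -28, read on the other strand, and *Hlf* had a CRE at -9. None of these letters were found in the windows of *Dbp*, *Nr1d2* and *Usp2*, which says only that they are absent from these bases. Over all 32851 windows in the table, the E-box was found in 7.15%, the E′-box in 4.68%, the D-box in 1.06%, the REV-ERB/ROR element in 0.606% and the CRE in 1.79%.

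**Figure D1:**
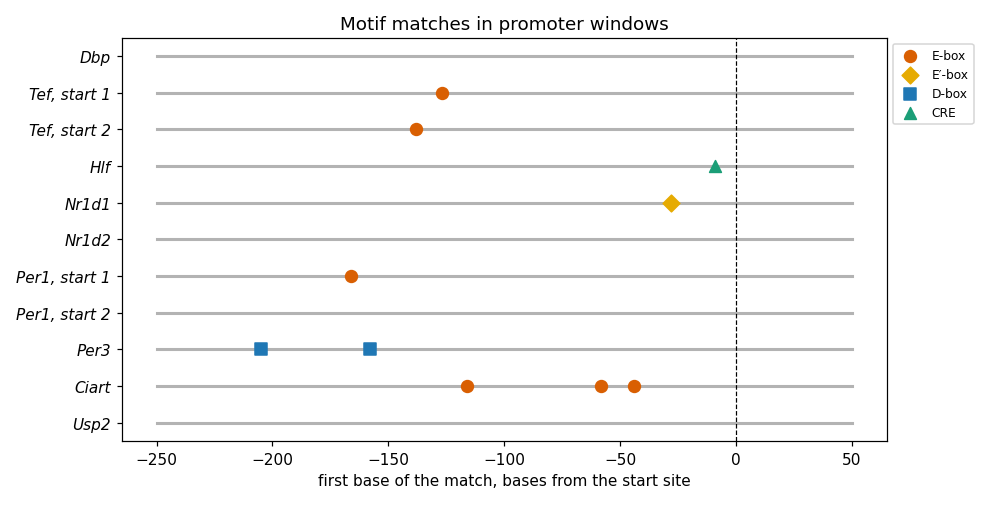
Motif matches in the promoter windows of 9 clock genes. The x axis gives the distance in bases of the first base of a match from the annotated start (dashed line), each grey line is a window from 250 bases before to 50 after a start, and symbols mark the kind of motif. *Ciart* carries 3 E-boxes and *Per3* 2 D-boxes, while 4 windows carry no match.

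Total counts per library ranged from 3445949 to 5976449. *Fgfr4* fell in both knockdown groups, from 29.7 ± 4.57 CPM (counts per 1000000 after TMM scaling, mean ± SD, n = 4) in Chow to 4.78 ± 1.60 in Chow/FGFR4 KD, and from 25.7 ± 4.25 in HFD to 3.74 ± 1.35 in HFD/FGFR4 KD (n = 4 each). Summed hepatocyte markers lay between 55154 and 80392 CPM in every library, with 7 of the 8 listed markers found by symbol and none of the 7 at 0. HFD/FGFR4 KD 1 stood apart from its group: its counts differed from those of the other 3 libraries by a chi-square per degree of freedom between 48.0 and 72.6, against 7.59 to 16.6 among those 3. Several counts are therefore also given without it. The HFD group was uneven as well. HFD 2 differed from HFD 1 by 56.5 and from HFD 3 by 58.9, against 11.7 from HFD 4. HFD 1 and HFD 3 differed by 11.4. The highest values in the chow-fed groups were 46.7 (Chow 2 and Chow 3) and 44.1 (Chow/FGFR4 KD 1 and Chow/FGFR4 KD 4). Of the 10 genes, 9 passed the filter on low values and were tested among 11324 genes. The filter reads CPM from library totals, before TMM scaling, on which *Ciart* was under 1 in 8 libraries, all chow-fed, and was left out. *Dbp* was under 1 CPM in 4 libraries, all chow-fed, which is the most the filter allows, so it was tested only because of its level on HFD.

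The first comparison asked how the arm differed with diet in saline-injected mice. Of the 9 genes tested, 7 were higher in HFD than in Chow, 0 were lower and 2 did not pass the test, where being called meant a p under 0.05 in limma-voom that was also under 0.25 after Benjamini-Hochberg adjustment. Over all genes tested 26% were called, 13.3% higher and 12.7% lower. Scaling to library totals alone changed this balance to 3967 genes higher and 339 lower, from 1506 and 1433, and left the estimates of the 9 genes above 0. The median log2 fold change (HFD minus Chow) was 1.11 for the 9 genes and 0.01 for all genes. At an adjusted p under 0.05, 5 of the 9 were called (*Dbp*, *Tef*, *Hlf*, *Per2* and *Per3*), against 9.20% of all genes in either direction and 4.55% higher. In 6 of the 9, all 4 HFD libraries lay above all 4 Chow libraries, against 8.33% of all genes. Each of these counts includes *Dbp*, which was tested only because of its level on HFD, so the filter favoured its being higher.

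*Dbp* (ENSMUSG00000059824, chromosome 7, 45705088 to 45710203 in GRCm38) encodes the albumin D-box binding protein. Its 4 Chow libraries had 2.67, 8.35, 1.01 and 0.710 CPM, and the 4 HFD libraries had 21.2, 36.9, 52.0 and 77.9 CPM. The lowest HFD library thus lay above the highest Chow library, Chow 2, and the HFD libraries themselves spread 3.68-fold. The log2 fold change was 4.32 (SE 0.773, 95% interval 2.69 to 5.95, limma-voom adjusted p = 0.00344). Chow levels rest on 3 to 32 counts per library, so the size of this change is less certain than its direction. Of the exonic bases of *Dbp*, 18% are shared with *Sphk2* on the opposite strand, and whether counting used strand is not given in the sources used here. *Sphk2*, named after its values were seen, was at 32.3 CPM in Chow and 38.5 CPM in HFD and did not pass the test (log2 0.26, limma-voom adjusted p = 0.337).

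*Tef* (ENSMUSG00000022389, chromosome 15, 81802421 to 81826863), the thyrotroph embryonic factor, had 48.0, 59.5, 40.8 and 45.2 CPM in Chow and 73.6, 106, 104 and 139 CPM in HFD. Its groups did not overlap, and the log2 fold change was 1.11 (SE 0.180, 95% interval 0.73 to 1.49, limma-voom adjusted p = 0.0019). *Hlf* (ENSMUSG00000003949, chromosome 11, 90336536 to 90390895), the hepatic leukemia factor, had 23, 19.6, 28.4 and 31 CPM in Chow and 35.9, 41.2, 51.8 and 47.7 CPM in HFD, again without overlap. Its log2 fold change of 0.79 (SE 0.141, adjusted p = 0.00344) was the smallest of the 3 PAR-bZIP factors, all of which were higher on HFD.

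Among the period genes, whose proteins inhibit the heterodimer, *Per3* and *Per2* were higher on HFD. *Per3* (ENSMUSG00000028957, chromosome 4, 151003652 to 151044665) had 2.46, 3.39, 2.64 and 2.13 CPM in Chow and 9.80, 15.5, 21.4 and 27.5 CPM in HFD. Every HFD library lay above the highest Chow library, and the log2 fold change was 2.64 (SE 0.470, 95% interval 1.65 to 3.64, limma-voom adjusted p = 0.00334). *Per2* (ENSMUSG00000055866, chromosome 1, 91415982 to 91459324) had 14.8, 6.0, 8.52 and 10.2 CPM in Chow and 17.4, 26.6, 25.3 and 31.5 CPM in HFD, and its log2 fold change was 1.34 (SE 0.270, adjusted p = 0.00628). *Per1* (ENSMUSG00000020893, chromosome 11, 69095217 to 69109960), which also answers to glucocorticoids and cAMP, ranged from 11.6 to 19.5 CPM in Chow and from 13.9 to 28.8 CPM in HFD. Its groups overlapped and it did not pass the test (log2 0.32, 95% interval -0.20 to 0.85, limma-voom adjusted p = 0.445).

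The REV-ERB receptors, which repress *Arntl*, showed smaller differences. *Nr1d2* (ENSMUSG00000021775, chromosome 14, 18204054 to 18239127) had 43.3, 71.0, 40.2 and 34.1 CPM in Chow and 53.3, 63.8, 63.0 and 75.9 CPM in HFD. Chow 2 lay within the range of the HFD libraries, and the log2 fold change was 0.49 (SE 0.179, limma-voom adjusted p = 0.0945), a call that was lost without Chow 4 (0.36, adjusted p = 0.244, with an unadjusted p over the threshold). *Nr1d1* (ENSMUSG00000020889, chromosome 11, 98767932 to 98775333) ranged from 51.5 to 99.9 CPM in Chow and from 49.5 to 107 CPM in HFD. The 2 groups covered nearly the same range, and the log2 fold change of 0.09 (95% interval -0.36 to 0.55, adjusted p = 0.825) did not pass the test. *Nr1d1* shares 8.55% of its exonic bases with *Thra* on the opposite strand, which was at 8.67 CPM in Chow and 8.76 CPM in HFD (named after its values were seen).

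*Usp2* (ENSMUSG00000032010, chromosome 9, 44067021 to 44095627), a ubiquitin-specific protease under clock control, had 3.90, 3.39, 3.45 and 1.66 CPM in Chow and 5.04, 11.6, 11.7 and 27.5 CPM in HFD. The log2 fold change was 1.85 (SE 0.651, limma-voom adjusted p = 0.0849), with an HFD group that spread 5.45-fold from HFD 1 to HFD 4. *Ciart* (ENSMUSG00000038550, chromosome 3, 95878503 to 95882251), a repressor of the CLOCK and BMAL1 heterodimer, had 0.820 and 0.522 CPM in 2 Chow libraries and 0 in the other two, and 1.73, 5.72, 6.13 and 11.9 CPM in HFD. In chow-fed mice 6 of 8 libraries had 3 counts or fewer, a level that cannot be told from a count of 0 at this depth. The HFD libraries lay above all Chow libraries, with a difference of means of 6.04 CPM (p = 0.0286 in a two-sided exact permutation test, the smallest that 4 against 4 libraries can give, and 0.0571 after adjustment over 4 comparisons).

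**Figure D2:**
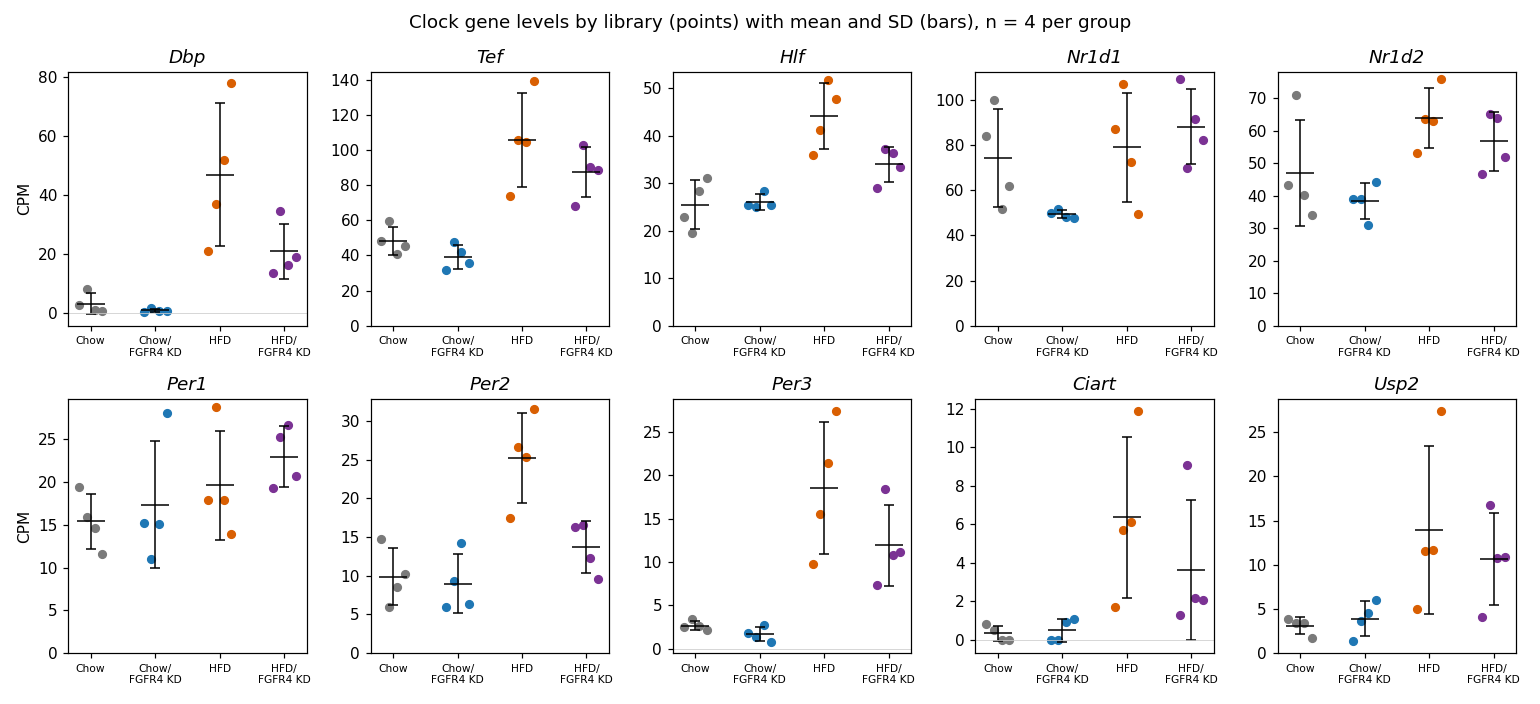
Levels of the 10 clock genes in each library. The y axis gives CPM on a linear scale, points are libraries in the order of their numbers within each of the 4 groups, horizontal bars are means and vertical bars SDs (n = 4). For *Dbp*, *Tef*, *Per3* and *Ciart* all 8 HFD-fed libraries lie above all 8 chow-fed libraries. For *Hlf*, *Nr1d1*, *Nr1d2*, *Per1*, *Per2* and *Usp2* the diets overlap.

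Diet was compared a second time in mice that had received the siRNA, with 8 libraries that are not part of the comparison in saline-injected mice. Both comparisons came from the single fit over all 16 libraries, with the same filter, scaling and estimate of the spread. Of the 9 genes, 8 were higher in HFD/FGFR4 KD than in Chow/FGFR4 KD and 0 were lower, where 20.2% of all genes were called and 10.1% were called higher. With library totals 1888 genes were called higher and 391 lower, and with upper quartile scaling 1393 and 875, from 1148 and 1145. The median log2 fold change was 0.82 for the 9 genes and -0.01 for all genes. At an adjusted p under 0.05, 3 of the 9 were called (*Dbp*, *Tef* and *Per3*), against 3.10% of all genes in either direction and 1.75% higher, and in 6 of the 9 the groups did not overlap, against 5.93% of all genes. Without HFD/FGFR4 KD 1, 8 of the 9 were again called, where 22.3% of all genes were. The 7 genes called higher in saline-injected mice were all among the 8, and 4.77% of all genes were called higher in both comparisons. Here too each count includes *Dbp*, which the filter kept only because of its level on HFD.

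*Dbp* had 0.397, 1.60, 0.908 and 0.827 CPM in Chow/FGFR4 KD and 13.7, 34.5, 16.4 and 19.2 CPM in HFD/FGFR4 KD. The groups were far apart, with a log2 fold change of 4.34 (SE 0.98, 95% interval 2.28 to 6.4, limma-voom adjusted p = 0.0249) and 4.51 without HFD/FGFR4 KD 1 (adjusted p = 0.0207). The level in Chow/FGFR4 KD rests on 15 counts in all. *Sphk2*, which shares exonic bases with *Dbp*, was also called higher here, unlike in saline-injected mice. It went from 25.4 CPM in Chow/FGFR4 KD to 45.3 CPM in HFD/FGFR4 KD (log2 0.85, limma-voom adjusted p = 0.0188). What part *Sphk2* had in the counts of *Dbp* was not tested. *Tef* had 31.9, 47.6, 41.8 and 35.8 CPM against 68.1, 103, 90.5 and 88.6 CPM, a log2 fold change of 1.16 (SE 0.190, adjusted p = 0.00488), and 1.27 without HFD/FGFR4 KD 1. *Per3* had 1.78, 1.37, 2.72 and 0.827 CPM against 7.37, 18.4, 10.8 and 11.1 CPM, a log2 fold change of 2.77 (SE 0.592, adjusted p = 0.0211), and 2.97 without that library. *Dbp*, *Tef* and *Per3* had the lowest adjusted p of the 9 here.

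*Nr1d1* had 49.8, 51.7, 48.1 and 47.7 CPM in Chow/FGFR4 KD and 109, 69.9, 91.3 and 82.1 CPM in HFD/FGFR4 KD. Its groups did not overlap, unlike those in saline-injected mice, and the log2 fold change was 0.82 (SE 0.226, limma-voom adjusted p = 0.0602). The difference between its 2 diet effects was 0.73 (95% interval 0.07 to 1.38), which had an unadjusted p under 0.05 but not an adjusted one in limma-voom (adjusted p = 0.70). *Nr1d2* rose by 0.56 (adjusted p = 0.112) and *Hlf* by 0.39 (adjusted p = 0.158), both without overlap. *Per2* rose by 0.71 (adjusted p = 0.214) and *Usp2* by 1.53 (adjusted p = 0.207), with overlapping groups. Leaving out single libraries ended the call for *Hlf* in 6 of 16 fits, for *Per2* in 6 and for *Usp2* in 7, and HFD/FGFR4 KD 1 was among them for *Per2* (0.62, adjusted p = 0.294).

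*Per1* ranged from 11 to 28.1 CPM in Chow/FGFR4 KD and from 19.3 to 26.7 CPM in HFD/FGFR4 KD and did not pass the test (log2 0.51, limma-voom adjusted p = 0.265). Its highest chow-fed library was Chow/FGFR4 KD 4, without which it was called (0.75, adjusted p = 0.128). It was also called without HFD 2 (0.51, adjusted p = 0.198) and without HFD/FGFR4 KD 1 (0.59, adjusted p = 0.204). *Ciart* had 0, 0, 0.908 and 1.10 CPM against 1.30, 9.07, 2.16 and 2.07 CPM. Its groups did not overlap (difference of means 3.15 CPM, p = 0.0286 in the exact permutation test and 0.0571 after adjustment), although HFD/FGFR4 KD 1 lay close to the highest chow-fed library.

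Across both injections, all 8 HFD-fed libraries lay above all 8 chow-fed libraries for 4 of the 10 genes, *Dbp*, *Tef*, *Per3* and *Ciart*. Of the 9 genes tested this held for 3, against 1.10% of all genes, and *Dbp*, among the 3, was tested only because of its level on HFD. The lowest HFD-fed library was HFD/FGFR4 KD 1 in each of the 4, with 13.7 CPM for *Dbp* against 8.35 CPM in Chow 2, the highest chow-fed library. For *Hlf*, 7 of 8 HFD-fed libraries lay above all chow-fed libraries, for *Per2* and *Usp2* 6 of 8, for *Nr1d1* 2 of 8, and for *Nr1d2* and *Per1* 1 of 8.

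**Figure D3:**
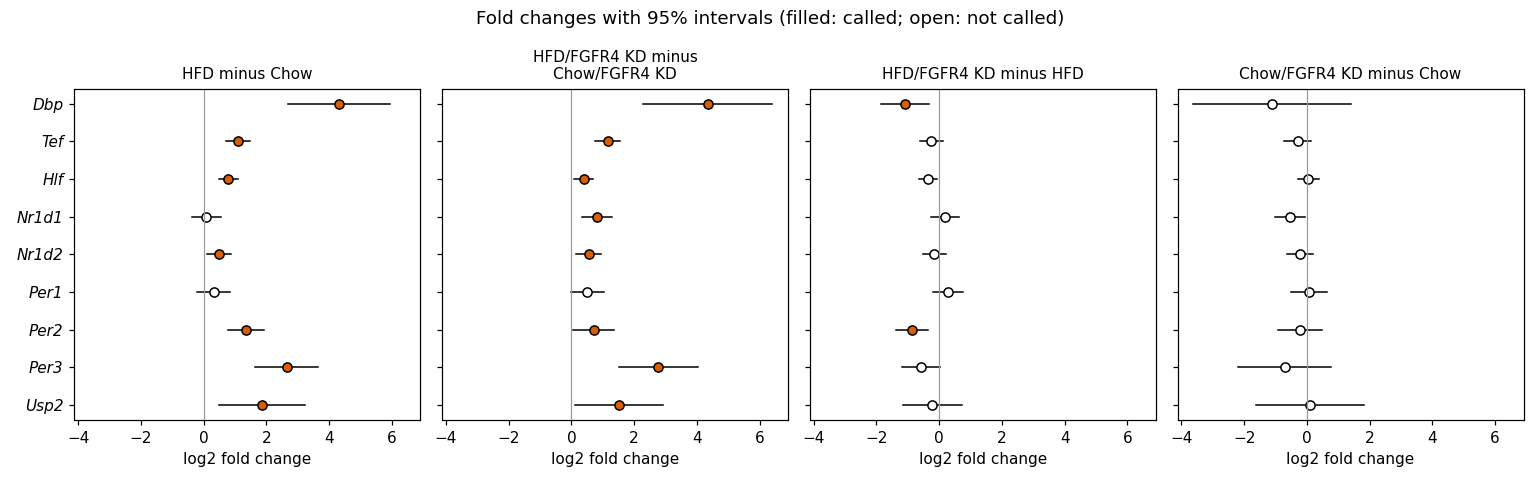
Log2 fold changes of the 9 clock genes tested in 4 comparisons. Points are limma-voom estimates, lines are 95% intervals, filled points were called and open points were not. In both diet comparisons, which set different libraries against each other within a single fit, all 9 estimates lie above 0. The KD comparisons lie on both sides of 0.

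The study knocked down FGFR4 on both chow and HFD, and KD on HFD is given first. Of the 9 genes, 2 were lower in HFD/FGFR4 KD than in HFD and 0 were higher, where 3.14% of all genes were called, 1.64% lower and 1.5% higher. With library totals 38 genes were called higher and 76 lower, from 170 and 186. The median log2 fold change was -0.25 for the 9 genes and 0.00 for all genes, and 0 of the 9 were called at an adjusted p under 0.05 in limma-voom, with 3 at an unadjusted p under 0.05, where 11% of all genes had one and 0.274% passed the stricter threshold. *Per2* fell from 25.2 ± 5.83 to 13.7 ± 3.36 CPM (n = 4 each), and all 4 KD libraries, at 16.3, 16.6, 12.3 and 9.59 CPM, lay below the lowest HFD library at 17.4 CPM. It was the one gene of the 9 without overlap, against 3.33% of all genes, and its log2 fold change was -0.85 (SE 0.241, adjusted p = 0.177).

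*Dbp* went from 47.0 ± 24.1 to 20.9 ± 9.33 CPM (n = 4 each), a log2 fold change of -1.09 (SE 0.360) at the edge of the threshold (limma-voom adjusted p = 0.249). HFD/FGFR4 KD 2, at 34.5 CPM, lay above HFD 1, at 21.2 CPM. Neither call held in all 16 fits without a single library. The estimates in these fits ranged from -1.43 to -0.81 for *Dbp* and from -1.03 to -0.72 for *Per2*. Without HFD/FGFR4 KD 1, *Dbp* was at -0.92 (adjusted p = 0.490) and *Per2* at -0.94 (adjusted p = 0.252), so that 0 of the 9 genes were called, where 1.21% of all genes were. The call of *Per2* was also lost without HFD 3 (-0.84), HFD 4 (-0.75), HFD/FGFR4 KD 3 (-0.80) or HFD/FGFR4 KD 4 (-0.72). The call of *Dbp* was lost in 11 of 16 such fits, with adjusted p-values up to 0.492. Both edgeR and DESeq2 called 1 of the 9 genes, where they called 246 and 351 of 11324 genes.

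The other genes did not pass the test on HFD. *Hlf* was at -0.36 (95% interval -0.64 to -0.08, limma-voom adjusted p = 0.317), and *Per3* at -0.58 (95% interval -1.18 to 0.02, adjusted p = 0.479). Without HFD 1 both were called, at -0.46 (adjusted p = 0.237) and -0.87 (adjusted p = 0.207). In that fit 4 of the 9 genes were called, where 169 of 11345 genes were. *Tef* was at -0.25, *Nr1d2* at -0.16, *Usp2* at -0.22, *Nr1d1* at 0.19 and *Per1* at 0.27, with adjusted p-values from 0.649 to 0.897 in limma-voom. *Ciart* went from 6.37 ± 4.19 to 3.65 ± 3.64 CPM (n = 4 each, p = 0.343 in the exact permutation test).

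On chow, 0 of the 9 genes were called with KD in limma-voom, and edgeR and DESeq2 also called 0. A single gene of 11324, or 0.00883%, was called here in limma-voom, 1 in edgeR and 2 in DESeq2. *Nr1d1* went from 74.3 ± 21.8 CPM to 49.3 ± 1.80 CPM (n = 4 each). It was the one gene of the 9 with an unadjusted p under 0.05 (log2 -0.54, limma-voom adjusted p = 0.976), where 4.58% of all genes had one. *Dbp* was at -1.11, with a 95% interval from -3.62 to 1.41 that leaves room for a change in either direction. The difference between the KD effects on the 2 diets was also called for 0 of 9 genes in limma-voom, edgeR and DESeq2 (1 of 9 at an unadjusted p under 0.05 in limma-voom, *Nr1d1*). In limma-voom 0.0353% of all genes were called and 6.76% had such an unadjusted p. Of 11324 genes, edgeR called 4 for this difference and DESeq2 54.

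Within each diet the libraries differed among themselves for these genes, and this was not compared with other genes. HFD 4 was the highest library of its group for 7 of the 10 genes and the lowest for *Nr1d1* and *Per1*, and HFD 1 was the lowest for 8. In HFD/FGFR4 KD, library 2 was the highest for 8 genes and library 1 the lowest for 8. How the genes moved together was examined against *Dbp* within the 8 HFD-fed and within the 8 chow-fed libraries, over 20 relations on log2(CPM + 1) that were chosen after the values were seen. The 8 libraries of a diet hold both injections, and the permutations did not keep the injections apart. With KD on HFD, *Dbp* and *Per2* were called lower and *Arntl* higher, so that r may in part read the difference between injections.

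In HFD-fed livers *Per3* followed *Dbp* most closely (Pearson's r = 0.97, exact permutation p = 0.000322, adjusted p = 0.00322; Spearman's rho = 0.90, exact permutation p = 0.00456, adjusted p = 0.0304), and r was 0.94 without the 2 libraries farthest from the median of *Dbp*. *Arntl*, which encodes BMAL1, ran opposite to it (r = -0.95, exact permutation p = 0.000322, adjusted p = 0.00322; rho = -0.98, exact permutation p = 0.000397, adjusted p = 0.00794), with r = -0.88 without those 2 libraries. *Arntl* was at 9.08, 5.39, 4.45 and 1.41 CPM in HFD 1 to 4, the reverse of the order of *Dbp*. *Tef* (r = 0.90, exact permutation p = 0.00186, adjusted p = 0.00774; rho = 0.88, exact permutation p = 0.00724, adjusted p = 0.0357), *Hlf* (r = 0.90, p = 0.00176, adjusted p = 0.00774; rho = 0.90, p = 0.00456, adjusted p = 0.0304; exact permutation tests) and *Ciart* (r = 0.92, p = 0.00295, adjusted p = 0.00984; rho = 0.83, p = 0.0154, adjusted p = 0.0384; exact permutation tests) also followed it, and *Per2* did with r = 0.82 (p = 0.0147, adjusted p = 0.0305; rho = 0.86, p = 0.0107, adjusted p = 0.0357; exact permutation tests). Without the 2 farthest libraries r was 0.73 for *Tef*, 0.86 for *Hlf*, 0.84 for *Ciart* and 0.84 for *Per2*.

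*Nr1d1* ran against *Dbp* in the HFD-fed livers (r = -0.76, p = 0.0233, adjusted p = 0.0389; rho = -0.69, p = 0.0694, adjusted p = 0.139; exact permutation tests). This relation rests on the 2 farthest libraries, without which r was -0.31. HFD 4, with the highest *Dbp* at 77.9 CPM, had the lowest *Nr1d1* of its diet at 49.5 CPM, and HFD/FGFR4 KD 1, with the lowest *Dbp* at 13.7 CPM, had the highest *Nr1d1* at 109 CPM. For *Nr1d2* (r = 0.82, 0.52 without those libraries) and *Usp2* (r = 0.79, 0.42 without them) the relation also weakened, and for *Per1* it was -0.39 (adjusted p = 0.411, exact permutation test). In chow-fed livers *Tef* followed *Dbp* as well (r = 0.87, p = 0.00193, adjusted p = 0.00774; rho = 0.83, p = 0.0154, adjusted p = 0.0384; exact permutation tests), and r was 0.77 without the 2 farthest libraries. For *Nr1d1* (0.88), *Nr1d2* (0.86) and *Hlf* (-0.84), r fell to -0.05, 0.06 and -0.16 without these libraries, so these relations rest on them. For the other genes the relation did not pass the test on chow, where *Dbp*, *Ciart* and *Per3* rest on few counts, and the difference between diets was not tested. *Arntl* had r = -0.71 (adjusted p = 0.0599, exact permutation test) and 0.25 without the 2 farthest libraries, and *Per3* had 0.53 and -0.10. For *Ciart* (0.27), *Usp2* (0.24), *Per2* (-0.09) and *Per1* (0.04), as for *Per3*, the adjusted p was 0.245 or more in exact permutation tests.

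**Figure D4:**
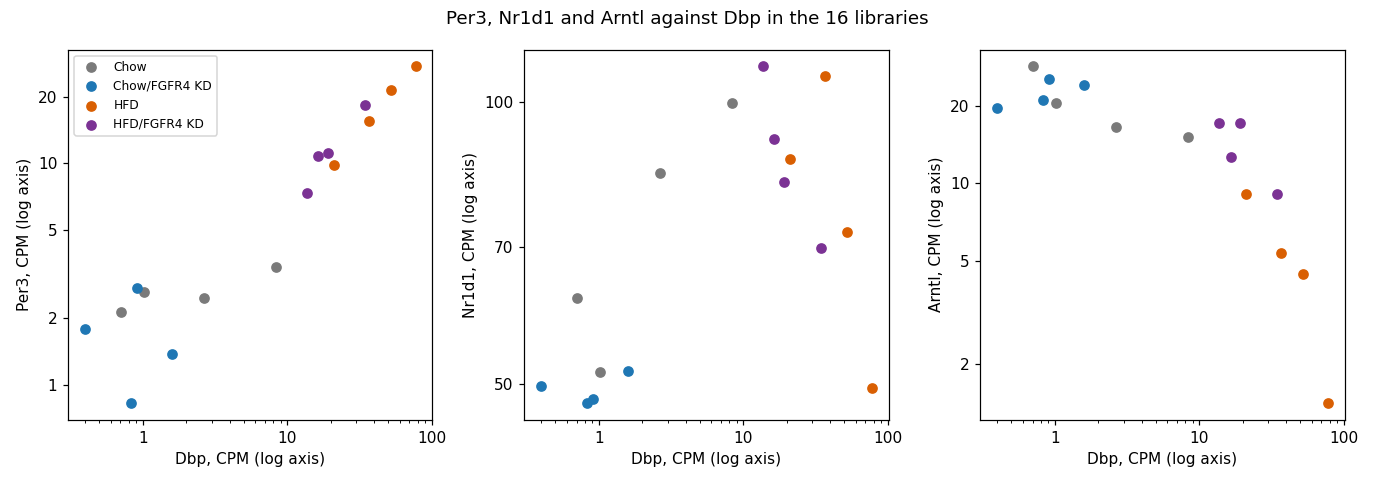
*Per3*, *Nr1d1* and *Arntl* against *Dbp* in the 16 libraries. Both axes give CPM on a log scale, each point is a library and colours are the 4 groups. In the HFD-fed libraries *Per3* is high and *Arntl* low where *Dbp* is high (r = 0.97 and -0.95, n = 8), while *Nr1d1* is highest at intermediate *Dbp* over all 16.

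The other clock genes were taken from a list of 15, of which 13 could be tested. In saline-injected mice 6 were lower and 1 was higher on HFD, where 12.7% and 13.3% of all genes were. With library totals 6 were lower and 4 higher, where 339 and 3967 of 11324 genes were. Without HFD 4, 6 were lower and 0 higher, where 1323 and 1436 of 11361 genes were. The 4 with the smallest p were *Clock*, *Nfil3*, *Arntl* and *Rora*. *Clock*, the partner of BMAL1, went from 74.8 ± 10.6 to 35.2 ± 4.71 CPM (n = 4 each; log2 -1.08, limma-voom adjusted p = 0.000592). *Nfil3*, which competes for D-boxes, fell by 1.89 on the log2 scale (adjusted p = 0.00232), *Arntl* fell by 2.09 (adjusted p = 0.00296) and *Rora*, which activates *Arntl*, fell by 0.59 (adjusted p = 0.00591). Their fall held in all 16 fits without a library and under all 12 other settings. The remaining calls were *Cry1* and *Npas2*, which were lower, and *Cry2*, which was higher (named as the rest of the 7). *Cry2* lost its call without Chow 1, Chow 3, HFD 3 or HFD 4. The median of the 13 was -0.08, against 0.01 for all genes.

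With KD present in both diets, the same counts were found, 6 lower and 1 higher of 13, where 10.1% of all genes were called each way. Without HFD/FGFR4 KD 1 there were 6 lower and 2 higher, where 1261 and 1285 of 11405 genes were. With library totals there were 4 lower and 1 higher, where 391 and 1888 of 11324 genes were. The 4 with the smallest p were *Cry1* (log2 -1.33, limma-voom adjusted p = 0.0052), *Rora* (-0.60, adjusted p = 0.0136), *Nfil3* (-0.87, adjusted p = 0.109) and *Npas2* (-2.02, adjusted p = 0.116), each called in all 16 fits without a library. *Arntl* was at -0.73 (adjusted p = 0.162) and lost its call in 4 of 16 fits, as did *Clock* (-0.36, adjusted p = 0.177), and *Cry2* (0.61, adjusted p = 0.192) lost its call in 6. The median of the 13 was -0.04, against -0.01 for all genes.

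With KD on HFD, 3 of the 13 were higher and 0 were lower, where 1.5% and 1.64% of all genes were. *Arntl* rose from 5.08 ± 3.16 to 14 ± 3.90 CPM (n = 4 each; log2 1.55, SE 0.377, limma-voom adjusted p = 0.102), *Nfil3* by 1.16 (adjusted p = 0.186) and *Clock* by 0.53 (adjusted p = 0.177). *Arntl* was called in 14 of 16 fits without a library and lost its call without HFD 3 or HFD/FGFR4 KD 4 (adjusted p up to 0.268), whereas *Clock* and *Nfil3* each lost theirs in 5. Without HFD/FGFR4 KD 1, 1 of the 13 was called (*Arntl*, 1.43, adjusted p = 0.232), where 1.21% of all genes were. The comparison shares the HFD libraries with that of diet in saline-injected mice. On chow, 0 of 13 were called with KD in limma-voom.

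**Figure D5:**
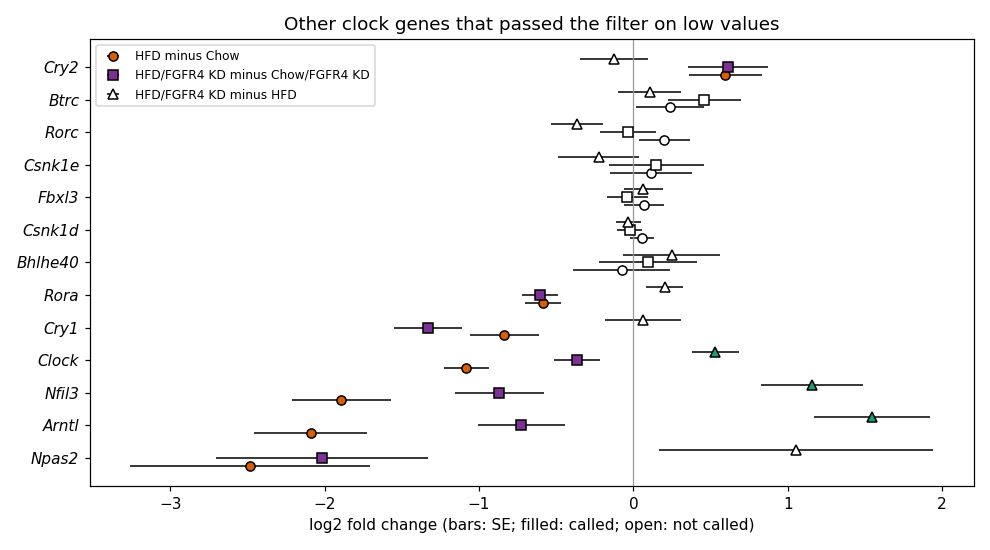
Log2 fold changes of the 13 other clock genes tested, by comparison. The x axis gives the limma-voom log2 fold change with its SE, symbols mark the comparison, and filled symbols were called. *Npas2*, *Arntl*, *Nfil3*, *Clock*, *Cry1* and *Rora* lie below 0 in both diet comparisons, and *Arntl*, *Nfil3* and *Clock* lie above 0 with KD on HFD.

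Genes on which the clock acts in liver were read from a list of 12, of which 10 could be tested. On HFD in saline-injected mice 5 were higher and 1 was lower, where 13.3% and 12.7% of all genes were, with a median log2 fold change of 0.38 against 0.01 for all genes. *Elovl3*, a fatty acid elongase, went from 772 ± 87.5 to 117 ± 48.8 CPM (n = 4 each; log2 -2.80, limma-voom adjusted p = 5.06e-05). *Ppara*, the receptor that turns on fatty acid oxidation, rose by 0.61 (adjusted p = 0.0119), *Nampt*, which makes an NAD precursor, by 0.66 (adjusted p = 0.0123) and *Gys2*, the liver glycogen synthase, by 0.53 (adjusted p = 0.0317). With KD in both diets 3 were higher and 2 lower, where 10.1% of all genes were called each way, among them *Elovl3* (-1.60, adjusted p = 0.00488) and *Ppara* (0.65, adjusted p = 0.0221). With KD on HFD, *Elovl3* rose by 1.11 (adjusted p = 0.0936) and *Gys2* fell by 0.61 (adjusted p = 0.101), and both calls were lost without HFD 3, and without HFD/FGFR4 KD 1 and HFD 4 together. That of *Gys2* was also lost without HFD/FGFR4 KD 4. *Nr1i3*, which DBP and its relatives are known to activate, was higher in both diet comparisons, at 0.63 (adjusted p = 0.161) in saline-injected mice and 0.90 (adjusted p = 0.0917) with KD. The first of these calls was lost without Chow 1, Chow 2, HFD 2 or HFD 3, and under edgeR.

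Genes that follow hormones, feeding and temperature were also read with diet, and their part in the clock genes' differences was not tested. In saline-injected mice, where 13.3% of all genes were higher and 12.7% lower, 1 of 9 glucocorticoid targets was higher on HFD (*Fkbp5*, log2 1.06, limma-voom adjusted p = 0.0797) and 3 were lower, with *Tat*, a tyrosine aminotransferase, at -1.43 (adjusted p = 0.00885). Of 9 genes induced by fasting, 5 were lower, such as *G6pc* (-1.84, adjusted p = 0.0109) and *Irs2* (-1.09, adjusted p = 0.0127), and 1 was higher (*Cpt1a*, 0.82, adjusted p = 0.00174). Among genes induced by feeding, *Srebf1*, which drives fatty acid synthesis, was higher at 0.82 (adjusted p = 0.0852), a call lost without Chow 2. Of 8 genes that answer to heat or cold, 5 were lower, of which *Hspa8* had the smallest p (-0.56, adjusted p = 0.0599). With library totals 3 of the 8 were lower, *Hspa8* not among them, and 2 of the 9 glucocorticoid targets, where 339 of 11324 genes were. With KD in both diets, 3 of 9 glucocorticoid targets, 4 of 9 fasting genes and 4 of 8 heat and cold genes were lower, and 0, 2 and 0 were higher, where 10.1% of all genes were called each way. With library totals 2, 3 and 2 were lower and 1, 2 and 0 higher, where 391 of 11324 genes were lower and 1888 higher.

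Markers of other liver cell types were read in the same comparisons. Over all genes, 13.3% were called higher and 12.7% lower on HFD in saline-injected mice, and 10.1% each way with KD in both diets. With KD on HFD, 1.5% were higher and 1.64% lower. In these bulk samples, fewer cells of a type and less RNA per cell cannot be told apart. Of 7 Kupffer cell markers, 6 were higher on HFD in saline-injected mice and 2 with KD in both diets, and their summed level was 51.1 to 60.1 CPM in Chow, 63.3 to 85.7 in Chow/FGFR4 KD, 91.8 to 173 in HFD and 80.0 to 148 in HFD/FGFR4 KD, with none of the 7 at 0 in every library. In the second comparison 6 of the 7 were called without HFD/FGFR4 KD 1, and 4 with library totals. Of all genes, 11.3% and 16.7% were then called higher. For 6 stellate cell markers the sums were 90.2 to 131, 75.8 to 123, 149 to 264 and 105 to 180 CPM in the same order, and 3 and 1 of them were called higher. The second count was 3 without HFD/FGFR4 KD 1 and 0 without HFD 4, where 11.3% and 10.1% of all genes were called higher. Of 5 endothelial markers 2 and 1 were called higher, of 5 cholangiocyte markers 2 were tested and 0 and 1 were called, the latter lower, and of 6 lymphocyte markers 1 was tested and called higher in the first comparison alone. Of 5 adipocyte markers 1 was tested, *Cfd*, which was higher in both (2.82 and 3.22), and 1 was at 0 in every library. Of the 7 hepatocyte markers, 0 were higher and 4 lower in the first comparison, and 1 was higher and 0 lower in the second. With library totals the first became 3 higher and 1 lower, where 3967 and 339 of 11324 genes were. Without HFD/FGFR4 KD 1 the second became 1 higher and 2 lower, where 1285 and 1261 of 11405 genes were. With KD on HFD, 0 of the Kupffer cell, stellate cell, endothelial, cholangiocyte and lymphocyte markers were called in limma-voom, *Cfd* was lower (-1.57, adjusted p = 0.228, with summed adipocyte markers at 10.9 to 24.6 CPM in HFD and 3.82 to 8.63 CPM in HFD/FGFR4 KD), and 1 hepatocyte marker was higher and 1 lower. *Cfd* was no longer called when any of 10 single libraries was left out (HFD/FGFR4 KD 1 and HFD 4 among them), nor under edgeR, DESeq2, library totals, no filter or the replicate block. Without HFD/FGFR4 KD 1 the hepatocyte markers became 0 higher and 1 lower, where 79 and 59 of 11405 genes were. What part these cells had in the levels of the clock genes was not tested.

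As a description, the pattern of the 9 genes was compared with that of all other genes tested, by Pearson's r over the 16 libraries with the mean of their standardised log2 CPM. The 16 libraries fall into 2 diets, so that r mostly reads the diet. Among the genes most like the mean were *Glul* (0.93), *Gpc1* (0.93), *Klhdc7a* (0.90) and *Vwa8* (0.89), and the genes most opposed were *Ces2a* (-0.93), *Elovl3* (-0.92), *Rps3* (-0.91), *Tuba4a* (-0.91) and *Rps3a1* (-0.91). Among the 9 genes themselves, *Dbp* (0.97), *Tef* (0.97) and *Per3* (0.95) lay closest to their common mean, of which each is a part, and *Nr1d1* (0.54) and *Per1* (0.53) farthest from it.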

How the data were processed

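Liver RNA from 16 mice (4 groups of 4, from the labels) had been sequenced from KAPA mRNA HyperPrep libraries per the labels, whereas the methods of the study name HTG EdgeSeq. The authors deposited estimated counts, also called expected counts, per Ensembl gene, made with fastp, kallisto and tximport. The submitters' processing notes name GRCm38, and the transcriptome release and tool versions are not given in the sources used here. Between 7.85% and 11.1% of values in a library were not whole.

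Genes with under 1 CPM in more than 4 libraries were left out. Counts were scaled with TMM (edgeR 4.0.16) and fitted with limma-voom (limma 3.58.1, R 4.3.3) over all 16 libraries, with a mean for each group, and p-values were adjusted over all 11324 genes. The filter, TMM and limma-voom follow the study's methods, and the single fit over all livers was chosen here. *Ciart* was compared by exact permutation of CPM. Correlations and permutation tests used SciPy 1.17.1, and Python 3.11.15 was used for sequences and figures. Levels are given with their spread over 4 livers, and counting error grows where counts are low. Totals from 3445949 to 5976449 set the precision, and 3 counts or fewer were treated as the floor.

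The fits were repeated with edgeR (quasi-likelihood), with DESeq2 1.42.0 after rounding, with other scalings and filters, with library weights, within the groups compared, with the replicate number as a block, and without each library in turn. Leaving out HFD/FGFR4 KD 1 with HFD 4, removing Gm42418 and Lars2, and the alternatives for *Ciart* were added after seeing the data. The scripts were tested on simulated data. No library was a copy of another: over 7405 genes, the 24 pairs within groups had chi-square values of 7.59 to 72.6 for each degree of freedom.

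The members and lists were chosen with earlier results of these data known. Named are all 10 members, up to 4 called genes with the smallest p from each other list, the 5 genes most and the 5 least like the members (predicted genes left out), and *Fgfr4* as the check of the labels; others are said to be named after their values were seen. Some items that these rules would name, and the counts that need them, are not reported here. Positions come from GENCODE M21 and promoters from RefSeq, both on GRCm38. Of 31-base transcript words, 20.8% for *Ciart*, 16.9% for *Dbp*, 9.51% for *Nr1d2*, 7.85% for *Nr1d1* and at most 3.54% for the other genes occur in other genes too, which makes their counts less certain.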

Additional observations from a re-analysis of the deposited data

Results flagged for a closer look

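In 2 of 40 groups of 4 values (10 genes in 4 groups), 1 library lay farther from the others, relative to the range of the group, than Dixon's 95% critical value allows, where chance gives 2. *Hlf* was at 28.5 CPM in Chow/FGFR4 KD 3, against 24.9 to 25.4 CPM in the other 3 libraries, a gap of 0.869 of the range. *Ciart* was at 9.07 CPM in HFD/FGFR4 KD 2, against 1.30 to 2.16 CPM in the others, a gap of 0.890 of the range.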

How the results depend on the processing

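Of the 9 genes tested, *Dbp*, *Tef* and *Per3* kept their call in both diet comparisons in all 16 fits without a library and under the 12 other settings. With diet in saline-injected mice, 6 to 7 genes were called without single libraries and 7 to 8 under the other settings, and *Per1* was called with library totals only (0.60, adjusted p = 0.0878), a scaling that moved the median of all genes by 0.29. The median of the 9 genes was then 1.38. Over all genes 2939 were called in the main fit, 2420 to 3076 without single libraries and 2654 to 5324 under the other settings. With diet under KD the count of 8 was 5 with no filter and 3 at an adjusted p under 0.05, and 5 to 9 without single libraries (5 without Chow/FGFR4 KD 1 or 2 or HFD/FGFR4 KD 2 or 3). Calls over all genes fell too, from 2293 of 11324 to 1724 of 24944 with no filter and 351 of 11324 at that adjusted p. Without Chow/FGFR4 KD 1 or 2 they were 1921 and 1828, and without HFD/FGFR4 KD 2 or 3 they were 1486 and 1453. With KD on HFD the count of 2 was 1 under edgeR, DESeq2, DESeq2 size factors, library totals only, no filter, only the groups compared, quality weights, or without Gm42418 and Lars2. It was 0 without HFD/FGFR4 KD 1 and HFD 4 together and at an adjusted p under 0.05, and 0 to 4 without single libraries (4 without HFD 1, and 0 without HFD 3, HFD 4 or HFD/FGFR4 KD 1, 3 or 4). Over all genes, 356 were called in the main fit, and 114 to 776 under the settings that gave 1. There were 79 without the 2 libraries together, and 89 to 605 without single libraries. With the replicate block the count of the 9 genes was 1, since *Dbp* (-1.03) and *Per2* (-0.85) lost their calls and *Hlf* (-0.37) gained one. Over all genes 259 were called with the block. The replicate numbers did not pair the livers (same-numbered pairs correlated from -0.29 to 0.24, and 3 of 16 libraries correlated best with their own number), and the block did not move the count of another comparison by over 1.5 times.

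Changes of sign were confined to estimates that were not called. With KD on HFD and without HFD/FGFR4 KD 1 and HFD 4, *Tef* was at 0.0075, *Nr1d1* at -0.12, *Nr1d2* at 0.012 and *Usp2* at 0.52, and the difference between diets for *Usp2* at 0.42. Quality weights put *Usp2* at 0.11 with KD on HFD and 0.052 for that difference, and *Per1* at -0.0051 with KD on chow. Library totals put the difference at -0.085 for *Dbp*, -0.072 for *Tef*, -0.056 for *Nr1d2* and -0.023 for *Per3*. Without single libraries, sign changed within -0.073 to 0.29 for *Nr1d1* with diet, -0.0086 to 0.35 for *Nr1d1* and -0.65 to 0.17 for *Usp2* with KD on HFD, and, with KD on chow, -0.067 to 0.14 for *Hlf*, -0.16 to 0.28 for *Per1*, -0.43 to 0.0056 for *Per2*, -0.15 to 0.60 for *Usp2* and -0.0327 to 0.335 CPM for *Ciart*. For the difference between diets the ranges were -0.56 to 0.43 for *Dbp*, -0.11 to 0.19 for *Tef*, -0.13 to 0.20 for *Nr1d2*, -0.0074 to 0.43 for *Per1*, -0.17 to 0.34 for *Per3* and -0.82 to 0.064 for *Usp2*. The causes were not tested. With a looser filter on low values (1 CPM reached by 4 libraries or more), which *Ciart* passed only through the HFD-fed libraries, it was at 4.09 (limma-voom adjusted p = 0.0978) and 3.19 (adjusted p = 0.249) with diet, and with no filter at 4.08 (adjusted p = 0.0377) and 2.94 (adjusted p = 0.254). Depth limits *Dbp*, *Per3*, *Usp2* and *Ciart* on chow, where a library held as few as 2, 3, 7 and 0 counts.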
